A study of Heliocidaris erythrogramma with 5 samples.

Results

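The cells described here carried at least 2 of the 5 ectoderm genes *Nodal*, *Gsc*, *Not*, *FoxABL* and *Bra* in larvae of the sea urchin *Heliocidaris erythrogramma*, a species whose larva does not feed. A cell was a member when it held a unique molecular identifier (UMI, 1 counted transcript molecule) of 2 or more of these genes, and 1170 of the 26740 cells kept met that rule. Whole larvae were dissociated, fixed in methanol and profiled by 3′ single-cell RNA-seq at 36, 42, 48, 56 and 60 h post-fertilization (hpf), with 1 library at each age. The library labelled 56 hpf carries 54 hpf in its file name and in the study's methods, and the label is used here. Because 1 library stands for each age, ages were described and not tested, and intervals given for an age cover counting error only.

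In sea urchin embryos *Nodal* encodes a TGF-beta ligand that is made on the oral (ventral) side of the ectoderm and sets the axis between the oral and aboral sides. It switches on its own antagonist *Lefty*, the BMP antagonist *Chordin* and the homeobox genes *Not* and *Gsc*, while *Bra*, a T-box factor, and *FoxA* mark the ectoderm around the mouth. Later in development Nodal signalling moves to the right side.

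The rule chose the cells by these genes, so their levels are a description. *FoxABL* was found in 89.7% of the members, *Not* in 48.7%, *Bra* in 45.5%, *Nodal* in 23.1% and *Gsc* in 16.1%. *FoxABL* was also the broadest of the 5, with a UMI in 14.0% of all other kept cells, against 1.08 to 2.0% for each of the other 4. In 1615 cells with at least 2 pigment cell markers, which should lack these genes, *FoxABL* had a UMI in 7.99% of cells and the other 4 in 0.248 to 1.11%, at a median of 1259 UMIs per cell against 1549.5 in members. Of those pigment-marker cells 21 (1.3%, exact 95% interval 0.807 to 1.98%) met the rule. By library the share was 1.14, 0, 0.820, 1.26 and 1.89% at 36, 42, 48, 56 and 60 hpf. At 36, 42 and 48 hpf its 95% intervals reached 2.88, 2.51 and 2.93%, below the 7.68, 6.56 and 4.80% of kept cells. At 56 and 60 hpf the intervals (0.260 to 3.62% and 0.980 to 3.28%) held the shares of kept cells, 1.70 and 2.41%. The shares were thus not told apart at those ages. *FoxABL* had a UMI in 1.70% of pigment-marker cells at 36 hpf and 14.96% at 60 hpf.

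Member cells numbered 408, 280, 196, 70 and 216 in the libraries of 36, 42, 48, 56 and 60 hpf, or 7.68, 6.56, 4.80, 1.70 and 2.41% of the kept cells. The share was thus highest in the youngest library and lowest at 56 hpf. The share at 36 hpf was 3.19 times that at 60 hpf (95% interval 2.71 to 3.75). Members were deeper than other cells in every library, with medians of 974.5 to 1844 UMIs against 809 to 1618. When each cell was thinned to 500 UMIs the shares were 2.04, 1.48, 1.25, 0.723 and 0.502% in order of age, and the ratio of 36 to 60 hpf was 4.06. Cells with at least 3 of the 5 genes numbered 118 (2.22%) at 36 hpf, 3 (0.0731%) at 56 hpf and 15 (0.167%) at 60 hpf, a ratio of 36 to 60 hpf of 13.3. No cell held all 5.

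The make-up of the members differed between the libraries. Cells with *FoxABL* and *Bra* and none of the other 3 genes were 15.9, 14.6, 26.0, 50 and 48.6% of members in order of age. *Not* was found in 60.3, 58.6, 50, 21.4 and 21.8% of the members in the same order, and *Nodal* in 26.2, 32.5, 23.0, 10 and 9.26%. *Gsc* ran from 9.18% of members at 48 hpf to 23.1% at 60 hpf. Among members, the older libraries therefore held smaller shares with *Nodal* and *Not* and a larger share with *FoxABL* and *Bra* alone. The latter cells numbered 65, 41, 51, 35 and 105 of 5314, 4268, 4080, 4106 and 8972 kept cells in order of age. Their share of kept cells thus did not rise from 36 to 60 hpf. Over all kept cells, *Nodal* was found in 5.83% at 36 hpf and 0.680% at 60 hpf, and *Not* in 6.47 and 0.992%. *Bra* was found in 6.12 and 3.01%, and *FoxABL* in 14.9 and 20.2%. Where *FoxABL* was left out of the rule, the share of cells with 2 of the other 4 genes was 11.1 times as high at 36 hpf as at 60 hpf.

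**Figure D1:**
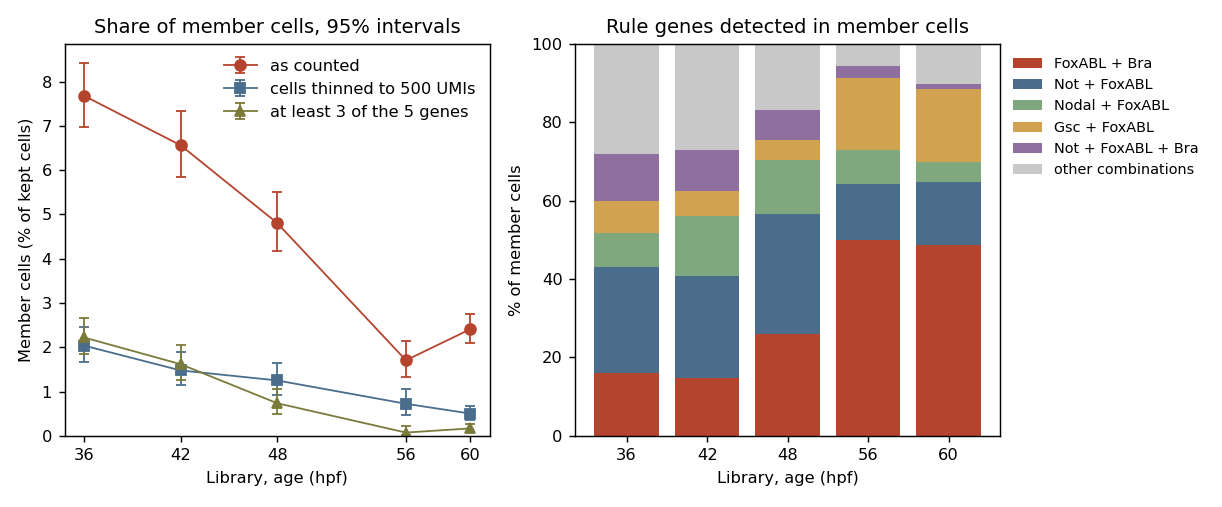
Left, member cells as a percentage of kept cells (y axis) at each age in hpf (x axis), as counted, after thinning to 500 UMIs and with at least 3 of the 5 genes; error bars are exact 95% intervals. Right, the combinations of rule genes as a percentage of members: *FoxABL* with *Bra* alone takes 15.9% of the bar at 36 hpf and 48.6% at 60 hpf.

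How far each of the 5 genes went with the others was described by leaving each out of the rule in turn. It was then measured in cells chosen by the other 4. The 5 genes were chosen with earlier results of these data known. The p-values here therefore cannot show whether they mark 1 kind of cell. Each of the 5 was higher in the chosen cells than in all other kept cells. UMIs were summed per library over each set of cells and compared with edgeR's quasi-likelihood test over the 5 libraries, with the library as a block and Benjamini-Hochberg adjusted p (called edgeR adjusted p from here on). Of all gene models tested, 4.87% were called higher with *Nodal* left out, 4.45% with *Gsc*, 3.6% with *Not*, 0.896% with *FoxABL* and 3.98% with *Bra*. Levels are in CPM (UMIs of a gene per 1000000 UMIs summed over the cells of a set).

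*Nodal* stood at 108, 82.3, 41.7, 0 and 15.6 CPM in cells chosen by the other 4 genes at 36, 42, 48, 56 and 60 hpf, and at 47.6, 32.7, 22.6, 5.34 and 4.71 CPM in other cells. It was higher in 4 of 5 libraries and had no UMI in the 63 chosen cells at 56 hpf (2.25-fold, log2 fold change 1.17 ± 0.20 SE, edgeR adjusted p = 4.26e-05). *Not* had the largest difference of the 5, with 374, 322, 153, 41.8 and 27.2 CPM in chosen cells against 48.1, 32.6, 28.8, 8.25 and 7.50 CPM. Its difference held in all 5 libraries (6.72-fold, log2 fold change 2.75 ± 0.17, edgeR adjusted p = 6.03e-15). *Bra* (4.33-fold, edgeR adjusted p = 2.13e-25) and *FoxABL* (3.50-fold, edgeR adjusted p = 4.67e-08) were also higher in all 5. At 56 hpf the chosen cells held only 3 UMIs of *Not*, 2 of *Bra* and 6 of *FoxABL*. *Gsc* was 2.30-fold higher (edgeR adjusted p = 0.000707), with 70.4 against 22.0 CPM at 36 hpf but 13.2 against 13.6 CPM at 60 hpf, and it was not called without the 36 hpf library (log2 fold change 0.84). The cells chosen without *FoxABL* numbered 348 in all and 6 at 56 hpf. As a difference in CPM, the gap between chosen and other cells was thus wider at the 3 younger ages than at 56 and 60 hpf for *Nodal*, *Not* and *Bra*.

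**Figure D2:**
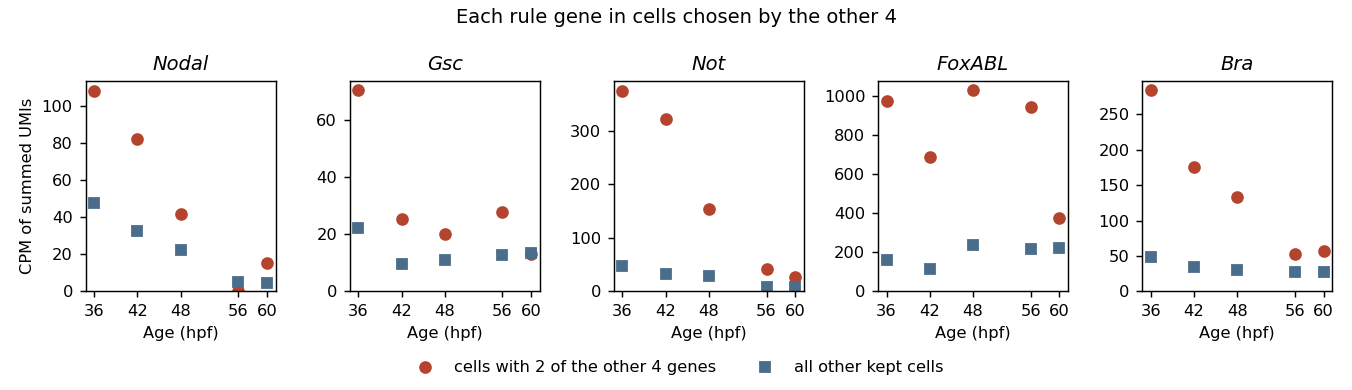
CPM of summed UMIs (y axis) of each rule gene by age in hpf (x axis), in cells chosen by at least 2 of the other 4 genes (circles) and in all other kept cells (squares). *Not* runs from 374 CPM at 36 hpf to 27.2 CPM at 60 hpf in the chosen cells, above the other cells throughout.

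The label of these cells as larval ectoderm was checked against the 3 larval ectoderm markers that the rule did not use, and none of the 3 was called higher in members by edgeR or DESeq2 (1 was at an unadjusted p under 0.05). *SoxB2*, a SoxB factor found through much of the ectoderm, stood at 391 to 543 CPM in members and 268 to 462 CPM in other cells, higher in 5 of 5 libraries but not past the threshold (log2 fold change 0.25 ± 0.11, edgeR adjusted p = 0.138). *Univin*, a TGF-beta ligand that works with Nodal, was higher in 2 libraries and lower in 3 (log2 fold change -0.36 ± 0.34, edgeR adjusted p = 0.586). *Tbx2/3*, a T-box gene of the aboral ectoderm in other sea urchins, was lower in members in 4 of 5 libraries (log2 fold change -0.92 ± 0.23, edgeR adjusted p = 0.00606, not called without the 42 hpf library, -0.70). The cells are therefore called members of the rule here.

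Over all genes, members were compared with the 25570 other kept cells in the same test, with the 5 rule genes left out of the table. Of 10534 gene models tested, 511 were higher in members (4.85%) and 762 were lower (7.23%), with a median log2 fold change of -0.05. Libraries of different ages are the repeats here, so the p-values measure how far the difference varied between ages as well as between libraries. Leaving out 1 library gave 275 higher without 36 hpf, 221 without 42 hpf, 292 without 48 hpf, 547 without 56 hpf and 784 without 60 hpf. Against other cells matched to the members on UMIs within each library, 673 of 6243 gene models were higher and 733 lower. Of the 464 higher calls that could be tested there, 439 were called again.

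Genes next to Nodal in the pathway came first. *Lefty*, the Nodal antagonist, stood at 61.9, 56.0, 37.0, 46.5 and 14.8 CPM in members at 36, 42, 48, 56 and 60 hpf and at 15.1, 13.3, 11.8, 7.55 and 9.0 CPM in other cells. It was higher in members in each library, with the smallest gap at 60 hpf (3.50-fold, log2 fold change 1.81 ± 0.23, edgeR adjusted p = 1.08e-06). *Chordin* stood at 31.0, 9.33, 5.28, 11.6 and 27.5 CPM in members and 4.26, 2.75, 6.94, 3.41 and 11.5 CPM in other cells. The groups overlapped, and at 48 hpf, with 2 UMIs in members, the order was turned (3.16-fold, edgeR adjusted p = 0.00134, log2 fold change 1.66 ± 0.35, and 1.09 without the 36 hpf library, not called). *Admp*, a BMP-family ligand, was 1.76-fold higher (edgeR adjusted p = 0.0167), with 11.6 CPM against 29.9 CPM the other way round at 56 hpf, and was not called without the 36 hpf (log2 fold change 0.56) or the 48 hpf library (0.71) or against depth-matched cells (0.73). At 56 hpf *Chordin* and *Admp* each had fewer than 3 UMIs in members. *Bmp2/4*, the BMP ligand of the oral ectoderm in other sea urchins, had 10 UMIs in all members (log2 fold change -1.18 ± 0.46, edgeR adjusted p = 0.0974).

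Of the 18 gene models of the Nodal and BMP list that were tested, 4 were called higher and 1 lower, with a median log2 fold change of -0.04 against -0.05 over all gene models. The fourth higher one was a model of *Ski*, a co-repressor of Smad proteins (1.29-fold, edgeR adjusted p = 0.0311). It lost its call without the 36, 42 or 48 hpf library (log2 fold change 0.35, 0.33 and 0.28). The other *Ski* model tested was not called (log2 fold change 0.24 ± 0.17, edgeR adjusted p = 0.430). The lower one was *Smad6/7*, an inhibitory Smad, at 248 to 470 CPM in members and 476 to 671 CPM in other cells. These ranges did not overlap (log2 fold change -0.74 ± 0.12, edgeR adjusted p = 6.05e-05). The type I and type II receptor genes tested (*Alk4/5/7*, both *Alk3/6* models, *Alk1/2*, *Acvr2_1* and *Bmpr2*) gave log2 fold changes of -0.33 to 0.29, none of them called.

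Among oral ectoderm regulators, 8 of the 15 gene models tested were higher in members and 4 lower, with a median log2 fold change of 0.51. *FoxA*, a forkhead factor of the mouth and gut, stood at 76.0, 46.7, 66.1, 0 and 27.5 CPM in members and 25.1, 29.9, 10.5, 22.2 and 12.3 CPM in other cells. It was higher in 4 libraries and had no UMI in the 70 members at 56 hpf (2.49-fold, log2 fold change 1.32 ± 0.26, edgeR adjusted p = 0.000624).

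*FoxG*, a forkhead gene of the oral ectoderm and ciliary band in other sea urchins, stood at 124 to 262 CPM in members and 63.6 to 138 CPM in other cells (1.97-fold, edgeR adjusted p = 3.33e-05). *Lim1*, a LIM homeobox gene, stood at 237 to 398 CPM in members and 148 to 179 CPM in other cells (1.83-fold, edgeR adjusted p = 1.17e-05). Its groups did not overlap, while those of *FoxG* did across ages, and both genes were higher within each library. *Otx*, a homeobox gene of the anterior ectoderm and endoderm, was 1.42-fold higher (edgeR adjusted p = 0.0213). It lost its call without the 36, 42 or 48 hpf library (log2 fold change 0.49, 0.41 and 0.54). On thinned cells it stood at -0.32 (not called), where the median of all gene models tested was -0.50. The 4 lower ones were *HesA*, *Tgif* and both *Smadip* models. *Tgif*, a homeobox co-repressor, stood at 218, 204, 129, 58.1 and 57.1 CPM in members and 535, 450, 329, 303 and 143 CPM in other cells, so it was lower in members at each age (log2 fold change -1.35 ± 0.13, edgeR adjusted p = 2.48e-08). *SoxB1*, at 959 to 1286 CPM in members and 779 to 1208 CPM in other cells, was not called (log2 fold change 0.09 ± 0.10, edgeR adjusted p = 0.631).

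**Figure D3:**
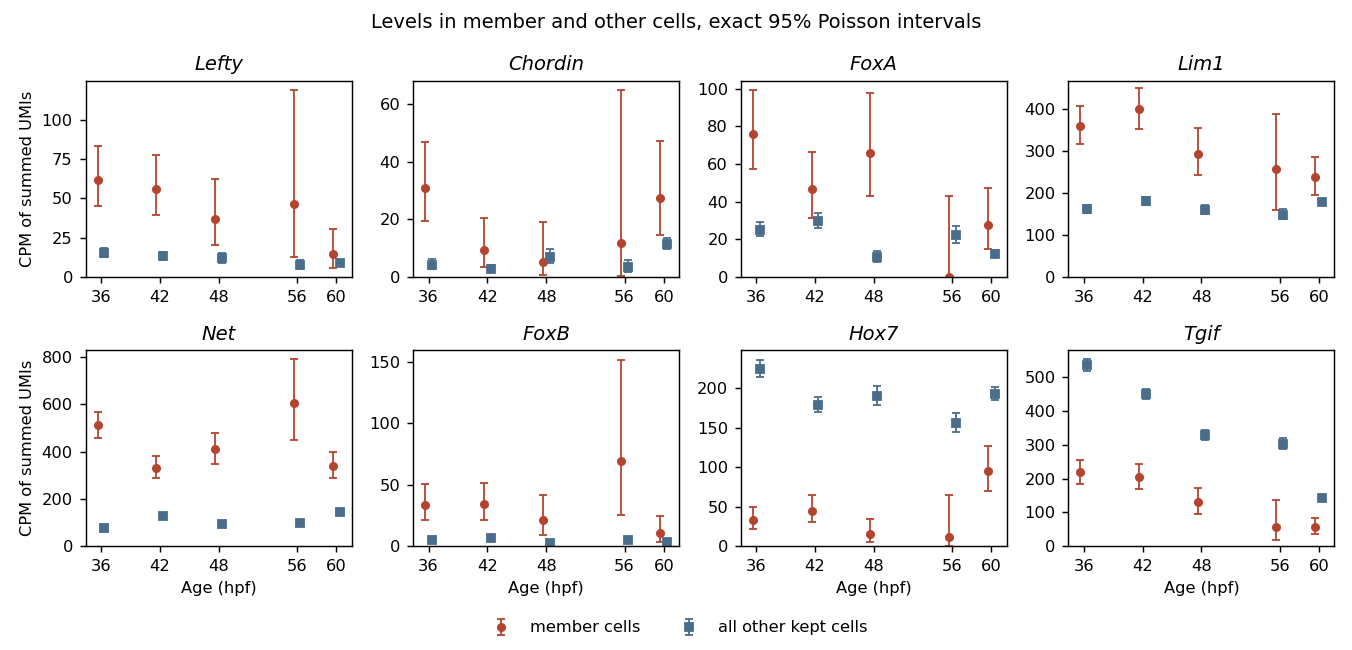
CPM of summed UMIs (y axes, from 0) by age in hpf (x axes) for 8 genes in member cells (circles) and all other kept cells (squares); error bars are exact 95% Poisson intervals of the counts. *Lim1* and *Net* lie higher in members at all 5 ages, while *Hox7* and *Tgif* lie lower.

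The largest rises outside these lists included transcription factor and signalling genes. *FoxB*, a forkhead gene, stood at 33.8, 34.2, 21.1, 69.7 and 10.6 CPM in members and 2.44 to 7.13 CPM in other cells, with no overlap between the groups (6.02-fold, log2 fold change 2.59 ± 0.30, edgeR adjusted p = 2.27e-07). The 2 gene models of *Rgma*, which in vertebrates encodes a co-receptor for BMP ligands, were 5.16-fold and 3.67-fold higher (edgeR adjusted p = 5.47e-10 and 4.73e-08), and the first ran from 346 CPM at 36 hpf to 82.5 CPM at 60 hpf in members. *Net*, at 332.8 to 604 CPM in members and 76.0 to 144 CPM in other cells, was 3.89-fold higher (edgeR adjusted p = 1.40e-09). *Mt5/MmpL1*, a gene of the matrix metalloproteinase family, was 5.64-fold higher (edgeR adjusted p = 1.61e-08), with 35.8 to 151 CPM against 4.51 to 25.3 CPM. *MacpfD.2* had the largest rise of all called genes with a symbol, 8.16-fold, but on 19 UMIs in members and with none in other cells at 36, 42 and 48 hpf (edgeR adjusted p = 0.000528). Calls for these 6 gene models were kept in each fit that left out 1 library.

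Wnt genes went both ways. Among ligands, 1 *Wnt7* model stood at 53.5, 24.9, 21.1, 11.6 and 36.0 CPM in members and 8.14 to 15.3 CPM in other cells. It was higher in members in 4 of 5 libraries, with 1 UMI in members at 56 hpf (2.73-fold, edgeR adjusted p = 8.64e-05). The other *Wnt7* model tested was not called (log2 fold change -0.17 ± 0.13, edgeR adjusted p = 0.479). *Wnt8* was 2.41-fold higher on 43 UMIs (edgeR adjusted p = 0.0123) and lost its call without the 42 hpf library (log2 fold change 0.80). *WntA*, listed as a posterior ectoderm marker, was lower, at 29.6 to 74.1 CPM against 101 to 150 CPM with no overlap (log2 fold change -1.58 ± 0.17, edgeR adjusted p = 6.13e-08). In all, 2 of 10 ligand models tested were higher and 2 lower, where 4.85% of all gene models tested were higher and 7.23% lower. Of 11 receptor and modulator models, 4 were higher and 2 lower: *Fzd4*, a Wnt receptor, stood at 267 to 639 CPM against 84.4 to 230 CPM (2.60-fold, edgeR adjusted p = 3.64e-08), and *Rspo3*, a secreted enhancer of Wnt signalling, at 129 to 218 CPM against 57.6 to 94.7 CPM (2.16-fold, edgeR adjusted p = 3.53e-06). For both genes every library's members lay above all 5 values of other cells. *Wnt3*, the second lower ligand, was not called without the 36 hpf library (log2 fold change -0.60).

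Markers of other ectoderm territories were mostly lower in members. The study chose some of them on the same cells, so their counts are not independent evidence of direction. All 4 posterior ectoderm markers were lower. *Hox7*, a Hox gene of the posterior ectoderm, stood at 33.8, 45.1, 15.9, 11.6 and 95.2 CPM in members and 225, 180, 191, 156 and 193 CPM in other cells, which did not overlap (log2 fold change -2.16 ± 0.21, edgeR adjusted p = 1.56e-08). Of the 17 aboral ectoderm regulators tested 8 were lower, *Hox7* and *Msx* among them, and 1 was higher (*Ars*, log2 fold change 0.32, edgeR adjusted p = 0.0324, not called without 36, 42 or 48 hpf, 0.27 to 0.30), with a median of -0.45. Putative rudiment ectoderm markers were lower in 5 of 6 gene models, and *Giant* stood at 31.7 to 121 CPM in members and 113 to 476 CPM in other cells (log2 fold change -2.01 ± 0.20, edgeR adjusted p = 2.83e-08). Verified rudiment ectoderm markers were split, with 3 models higher and 4 lower of 8. The 3 *Egfi* models tested, which encode extracellular matrix proteins, themselves differed, with log2 fold changes of 0.94, 0.51 and -0.91, all called (the second not without 36 or 42 hpf, 0.34 and 0.35). Animal pole markers were lower in 3 of 4. *Hbn*, a homeobox gene of the animal pole, stood at 144 to 264 CPM in members and 263 to 386 CPM in other cells (log2 fold change -0.62 ± 0.14, edgeR adjusted p = 0.00253). *FoxQ2_1* was not called without 36, 42 or 56 hpf (-0.35, -0.62 and -0.66), nor *Fzd5/8* without 36, 48 or 56 hpf (-0.53, -0.51 and -0.63). Against depth-matched cells none of these 3 was called by edgeR (-0.34 to -0.50).

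Markers of pigment, mesenchyme, skeletal and neural cells were mostly lower in members. All 3 pigment markers tested were lower, and *Mif4* stood at 37.3 to 662 CPM in members and 503 to 1658 CPM in other cells, with overlap between ages (log2 fold change -2.20 ± 0.25, edgeR adjusted p = 1.60e-07). Summed over the 4 pigment markers the level was 43.5 to 720 CPM in members and 617 to 1815 CPM in other cells, with *Fmo* at 0 in both. *Snail*, a zinc finger gene of mesenchyme, had 5 UMIs in members and 883 in other cells. *Hhex*, a homeobox gene, had 6 UMIs in members and 1277 in other cells, and the skeletal gene *Sm37* had 3 and 579, a ratio of other cells to members of 12.2 in pooled CPM (95% counting interval 4.14 to 59.1). Neural markers were lower in 4 of 6 models, among them *Syt4*, a synaptotagmin of secretory vesicles, with 18 UMIs in members, 17 of them at 60 hpf. None of 11 mitosis gene models was called in either direction by edgeR or DESeq2 (log2 fold changes of -0.23 to 0.33, with 2 at an unadjusted p under 0.05). Of 20 DNA replication models, *Mcm5* (log2 fold change -0.75, and -0.63 without 42 hpf, not called) and *Mcm3_1* (-0.55, and -0.48 without 36 hpf, not called) were lower. Over all gene models tested 7.23% were called lower. Against cells with exactly 1 rule gene, *Mif4* and *Hox11/13c* had log2 fold changes of 0.21 and 0.10, neither called.

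**Figure D4:**
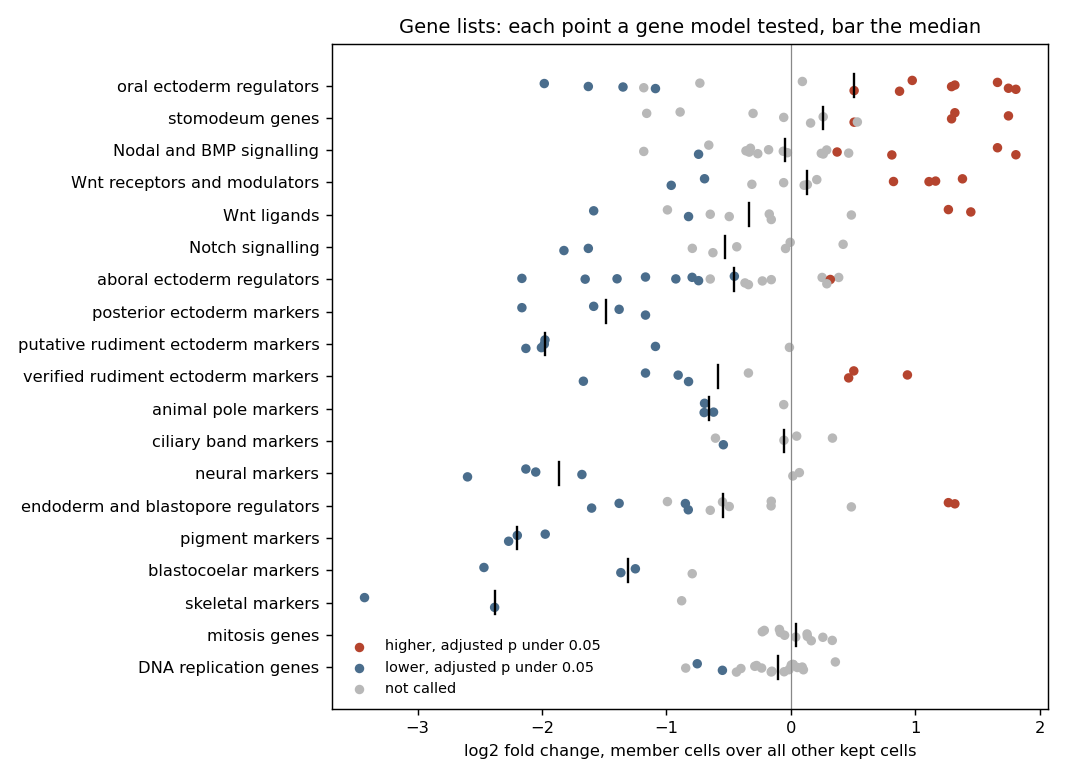
Log2 fold change of members over all other kept cells (x axis) for each gene model tested in 19 gene lists (y axis), red and blue where the edgeR adjusted p was under 0.05, with the list's median as a bar. Oral ectoderm regulators have a median of 0.51, posterior ectoderm markers one of -1.48.

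Counted per cell, 45.9% of members carried a UMI of at least 2 verified rudiment ectoderm markers, against 32.0% of other cells, and 7.69% carried 2 left ectoderm markers, against 3.36%. After thinning to 500 UMIs, after which 293 cells met the rule, these shares were 14.0 against 13.3% and 0.341 against 0.663%, so neither was read as a difference. Pigment markers (1.79 against 6.23%) and posterior ectoderm markers (3.50 against 9.04%) were found in smaller shares of members both as counted and after thinning (0.341 against 3.47% and 0.683 against 3.83%). Neural markers were found in 4.19 against 6.46% in all, but in 12.5 against 9.52% at 60 hpf. Animal pole markers were found in 17.9 against 16.4% in all, in 10.5 against 15.1% at 36 hpf and in 31.0 against 18.4% at 60 hpf. Ciliary band markers were found in 16 against 16.3% in all, in 9.56 against 14.0% at 36 hpf and in 25.9 against 20.7% at 60 hpf. The pooled shares of both thus combined libraries that lay on opposite sides, and after thinning they stood at 5.46 against 7.68% and 4.1 against 7.09%. At least 2 of the 3 larval ectoderm markers outside the rule were found in 3.85 against 2.62% (ratio 1.47, 95% interval 1.09 to 1.97), but in 0 of 293 members (exact 95% interval up to 1.25%) against 0.49% after thinning, so no difference was read. No doublet caller was used, and 0 to 6.48% of members had over 5000 UMIs, against 0.173 to 3.41% of other cells.

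Just outside the rule, 5119 cells held exactly 1 of the 5 genes, and just inside it 935 held exactly 2. The groups held different mixes of ages, with 118 of the 235 cells with 3 or more genes from 36 hpf but 6830 of the 20451 cells with none from 60 hpf, so levels were compared within each library. *Lefty* stood at 10.9, 9.03, 9.18, 6.25 and 8.31 CPM in cells with none of the 5 genes at 36, 42, 48, 56 and 60 hpf, at 30.7, 30.6, 21.0, 13.4 and 10.7 CPM with 1, and at 52.1, 50.7, 21.6, 48.6 and 13.7 CPM with 2. *Lim1* stood at 148, 179, 154, 133 and 161 CPM with none, at 208, 183, 177, 217 and 223 CPM with 1, and at 338, 381, 302, 267 and 238 CPM with 2. Cells with 1 gene thus lay between the other groups in all 5 libraries for both, although the counting intervals of neighbouring groups overlapped in several of them. Cells with 3 or more genes, of which 56 and 60 hpf held 3 and 15, stood at 80.2, 68.8 and 130 CPM of *Lefty* at 36, 42 and 48 hpf. They stood at 397, 439 and 242 CPM of *Lim1*, the last of these below cells with 2. *Tgif* ran the other way in all 5, from 168 to 553 CPM with none to 80.6 to 471 CPM with 1 and 59.5 to 233 CPM with 2. *Prps1_1*, a gene of nucleotide synthesis, went from 24.3 to 389 CPM with none to 35.2 to 844 CPM with 1 and 54.2 to 1651 CPM with 2, in that order in each library. With 3 or more genes it stood at 68.1, 106, 186, 4840 and 865 CPM in order of age, below cells with 2 at 42, 48 and 60 hpf. *FoxA* had no such order, at 11.8, 5.89 and 67.7 CPM with 0, 1 and 2 genes at 48 hpf and at 22.0, 22.8 and 0 CPM at 56 hpf. For *Lefty*, *Lim1*, *Tgif* and *Prps1_1* the summed levels with 0, 1 and 2 rule genes were thus in order in all 5 libraries. Whether single cells differed by degree, or the groups mixed different kinds of cell, was not tested.

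Between ages, levels in members and in other cells were set side by side for the 23 gene models that were called higher in members and belonged to the 3 lists above or to the largest differences. The ratio of 60 to 36 hpf had a 95% counting interval wholly below 1 in members for 12 of them and wholly above 1 for 2, while in other cells it lay below 1 for 5 and above 1 for 13. These gene models were picked for being higher in members, and 408 of the 1170 members came from 36 hpf. The same ratios were not taken over all gene models tested, so the counts describe the 23 only. On cells thinned to 500 UMIs 8 of the 23 ratios in members had at least 3 UMIs at both ages, and *Net* and *FoxG*, 2 of the 12 below 1 as counted, then stood at 1.66 and 1.05. *Lim1* at 60 hpf was 0.660 times its level at 36 hpf in members (interval 0.524 to 0.828) and 1.11 times in other cells (1.03 to 1.19). *FoxB* was 0.313 times (0.0933 to 0.837) in members and 0.660 times (0.404 to 1.08) in other cells. *Lefty* was lower at 60 hpf in both, 0.239 times in members (0.0909 to 0.535) and 0.596 times in other cells (0.451 to 0.785). *Prps1_1* was higher at 60 hpf in both, 17.2 times in members and 18.5 times in other cells. The share of members with *FoxABL* and *Bra* alone moved over the same libraries, and its part in these ratios was not tested.

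After the shift in make-up had been seen, the 297 members with *FoxABL* and *Bra* alone were compared with the 638 members that had no UMI of *Bra*, by the same test over the 5 libraries. Of 2011 gene models tested, 26 were higher in *FoxABL* and *Bra* cells (1.29%) and 24 lower (1.19%). The median UMIs per cell were 1040 to 2547 in the first set and 980 to 1621 in the second. Without the 42 hpf library, where that gap was widest (2547 against 1534.5), 8 were higher and 17 lower, of which 8 and 16 were among the calls above. On cells thinned to 500 UMIs only 126 models could be tested, with none higher by edgeR (7 at an unadjusted p under 0.05) and 6 lower.

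*Prdm14_1*, a left ectoderm marker, stood at 1050, 1099, 311, 193 and 230 CPM in *FoxABL* and *Bra* cells at 36, 42, 48, 56 and 60 hpf, and at 300, 103, 72.9, 110 and 78.8 CPM in members without *Bra*. It was higher in each library, and the gap was largest at 42 hpf (4.64-fold, log2 fold change 2.21 ± 0.23, edgeR adjusted p = 2.29e-06). *Msx*, a homeobox gene listed for the rudiment and posterior ectoderm, stood at 78.1, 286, 67.3, 129 and 72.5 CPM against 32.5, 43.1, 20.8, 0 and 15.8 CPM (4.48-fold, edgeR adjusted p = 0.000361). Its groups did not overlap, but it lost its call without 42 hpf (log2 fold change 1.74). One *Egfi* model was 3.89-fold higher (edgeR adjusted p = 0.000501), at 113, 420, 555, 772 and 371 CPM against 16.2, 97.6, 62.5, 0 and 268 CPM. *Tgif* was 2.73-fold higher (edgeR adjusted p = 0.000145), at 486 against 157 CPM at 36 hpf and 68.5 against 52.5 CPM at 60 hpf. *Activin*, a TGF-beta ligand, was 2.30-fold higher (edgeR adjusted p = 0.00578), at 107 to 210 CPM against 57.8 to 82.1 CPM with no overlap, and lost its call without 48 hpf (log2 fold change 1.03).

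Of the 24 lower models, *FbsL_2* had the largest fall by the rule for named genes (log2 fold change -1.36 ± 0.30, edgeR adjusted p = 0.0104). It stood at 34.7, 17.9, 75.7, 85.7 and 701 CPM against 160, 296, 494, 246 and 825 CPM, lower in each library. *CalmL2* was also lower (log2 fold change -0.93 ± 0.13, edgeR adjusted p = 0.000101). *Six3*, an animal pole homeobox gene, stood at 113, 322, 286, 386 and 391 CPM in *FoxABL* and *Bra* cells and at 633, 606, 609, 685 and 604 CPM in members without *Bra*. The groups did not overlap (log2 fold change -1.11 ± 0.19, edgeR adjusted p = 0.000765). *Hbn*, a second animal pole homeobox gene, was lower in all 5 libraries (log2 fold change -1.14 ± 0.24, edgeR adjusted p = 0.00578), so both animal pole markers tested were lower. *Onecut*, a ciliary band factor, stood at 34.7 to 145 CPM against 162 to 273 CPM with no overlap (log2 fold change -1.13 ± 0.22, edgeR adjusted p = 0.00332, and -0.62, not called, against the 289 members with *Not* and *FoxABL* alone). Of the 4 ciliary band gene models tested 3 were lower, the other called ones being 2 models of the tubulin gene *Atub13* (-0.84 and -0.34, the second not called in any fit that left out a library, -0.29 to -0.40). *Btub3*, a tubulin gene, was lower at 2596 to 6637 CPM against 4792 to 10233 CPM (log2 fold change -0.86 ± 0.09, edgeR adjusted p = 2.22e-06). None of the 4 tested models of Nodal and BMP signalling was called by edgeR or DESeq2, which gave no adjusted p for 2 of them (log2 fold changes of -0.23 to 0.29, none at an unadjusted p under 0.05).

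**Figure D5:**
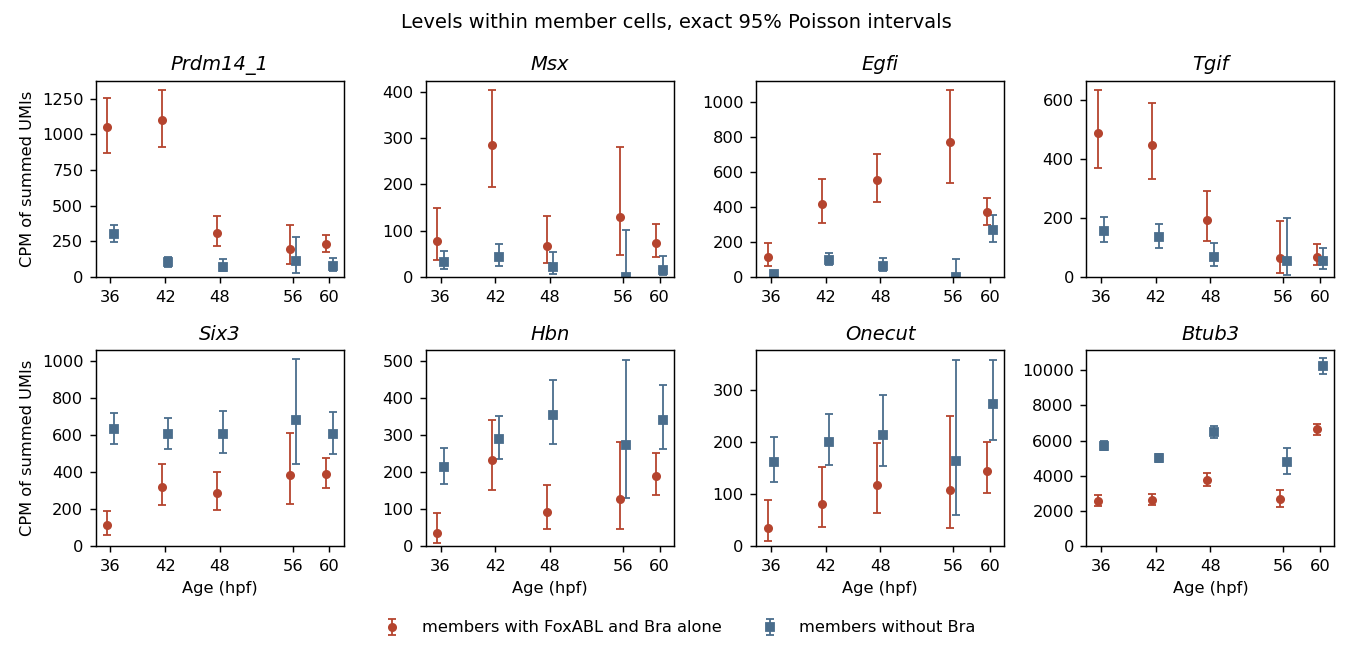
CPM of summed UMIs (y axes, from 0) by age in hpf (x axes) for 8 genes in members with *FoxABL* and *Bra* alone (circles) and members without *Bra* (squares); error bars are exact 95% Poisson intervals. *Prdm14_1* and *Msx* lie higher in *FoxABL* and *Bra* cells at each age, while *Six3* and *Btub3* lie lower.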

How the data were processed

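The authors aligned and counted reads with Cell Ranger 3.1.0 and deposited unnormalized whole UMI counts for 38707 gene models in each of 5 libraries (4193645 to 12136079 UMIs in kept cells); Seurat 4.0 is also named in the submitters' notes. The genome build and annotation used for counting are not given in the sources used here; the study took gene models for functional annotation from an earlier publication. The study's limits were used (more than 200 genes, fewer than 10000 UMIs, fewer than 4000 genes), which removed 41 of 26781 barcodes. 71 barcodes occurred in more than 1 library, 4 of them in members. Doublets were not called.

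UMIs were summed per library over member and other cells (10 sums). Tests used edgeR 4.0.16 in R 4.3.3 (TMM, filterByExpr, quasi-likelihood F test, library as block, adjusted p under 0.05), and were tested on simulated data. The block is right because both sums come from 1 library. DESeq2 1.42.0 was an alternative. Exact Poisson and Clopper-Pearson 95% intervals cover counting error only. PCR duplicates are collapsed by UMI. Thinning used seed 11.

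Named genes were the rule genes, the larval ectoderm, Nodal and BMP and oral lists (tested or at least 10 UMIs in members), the 15 largest rises and 10 largest falls of called genes (a symbol, the same direction in all 5 libraries, at least 50 UMIs), and the 3 largest changes called in each other list. Members and lists were chosen with earlier results of these data known. The comparisons of rule genes left out and of *FoxABL* and *Bra* cells, the genes named in the latter, and *Ars*, *Wnt3* and the 2 other *Egfi* models, were chosen after values were seen. Results for a few genes that met the rule are not reported here.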

Additional observations from a re-analysis of the deposited data

How the results depend on the processing

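Counts of calls depended on the library block, on depth per cell and on the rule. On thinned cells, where 293 cells met the rule and 6669 gene models were tested, the median log2 fold change of all gene models moved from -0.05 to -0.50 (members against other cells), with 27 higher and 423 lower. It moved to -0.24 with at least 3 rule genes (62 higher, 387 lower), to -0.40 with no filter on low counts (259 and 1378) and to -0.17 with the rule without *FoxABL* (88 and 408). Of the 511 higher calls, 467 could be tested on thinned cells, and 301 of these kept their sign. With at least 3 rule genes 461 of 504 kept it, and with the rule without *FoxABL* 477 of 504. Against cells with exactly 1 rule gene 100 were higher and 123 lower. No replicate block (the library term dropped) left 23 and 46, and 18 of 75 named gene models. Leaving out 1 library gave 221 to 784 higher and 526 to 954 lower.

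For *FoxABL* and *Bra* cells against members without *Bra*, a comparison added after seeing the data, no replicate block left 0 and 0 (52 and 35 at an unadjusted p under 0.05), and the DESeq2 Wald test gave 13 higher (17 lower). The 289 *Not* and *FoxABL* cells as comparison gave 15 and 13, thinning 0 (7 at an unadjusted p under 0.05) and 6, and leaving out 1 library 8 to 32 higher and 17 to 29 lower.

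For rule genes left out, no replicate block ended the calls of *Nodal* (log2 fold change 1.31), *Gsc* (1.29) and *Not* (2.9). Leaving out 1 library gave 1.11 to 1.24, 0.84 to 1.45, 2.56 to 2.91, 1.58 to 2.16 and 1.86 to 2.33 for *Nodal*, *Gsc*, *Not*, *FoxABL* and *Bra*.

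The ratio of the member share at 36 to that at 60 hpf was 2.45 for cells with over 500 genes, 4.06 thinned, 13.3 with at least 3 genes, and 2.49, 11.1 and 5.37 with the rule without *Not*, *FoxABL* and *Bra*. Thinned, the ratio of members to other cells with 2 markers was 0.711 (animal pole), 1.05 (verified rudiment), 0.178 (posterior), 0.514 (left), 0.578 (ciliary band), 0.310 (neural), 1.55 (gut), 0.0984 (pigment) and 0.394 (blastocoelar). Among the genes described here, directions turned for *Otx* (log2 fold change -0.32, thinned), for *Mif4* and *Hox11/13c* (0.21 and 0.10, against cells with 1 rule gene), for *Ars* (-0.19 with at least 3 rule genes, -0.05 with the rule without *FoxABL*), and for the thinned 60 to 36 hpf ratios in members of *Net* (1.66) and *FoxG* (1.05). The values of *Otx* and *Ars* lay above the medians of all gene models in those settings (-0.50, -0.24 and -0.17). Of 23 such ratios 8 had at least 3 thinned UMIs at both ages. The causes were not tested.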
